A study of Mus musculus with 6 samples.

Results

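Tubulins are the proteins that microtubules are built from, and 10 genes of this family were examined in mouse testes, wild-type and Ttll5 knockout. They were chosen by name, as probe sets whose array annotation gives the member's symbol or an older name of it, and 9 of the 10 had a gene value among the 15792 genes of the arrays. Together these 9 held 65 of the 188590 probe sets. The exception was Tuba3a, whose 5 probe sets are annotated to Tuba3a and Tuba3b at once and are described separately. Tubb4 is the array's symbol for the gene now named Tubb4a.

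Microtubules are polymers of alpha and beta tubulin dimers. Gamma tubulin nucleates them, and delta and epsilon tubulin are needed for the triplet microtubules of centrioles. In the testis they form the meiotic spindle, the manchette that surrounds the elongating spermatid nucleus, and the axoneme of the sperm tail. The C-terminal tails of alpha and beta tubulin are where enzymes of the Ttll family add glutamate, and Ttll5 is one of these enzymes, known for acting mainly on alpha tubulin. The series title ties loss of the gene to abnormal sperm and male infertility.

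Total testis RNA was hybridised to 6 exon arrays, 3 from wild-type (WT) mice and 3 from mice labelled Ttll5/Stamp KO, abbreviated KO here. Both groups share a background that mixes C57BL/6, 129/SvEv and FVB/N, and the labels describe littermates matched for age and sex. They state no age, no treatment and no deleted part of the gene, and none ties an array to a particular litter. Each array is 1 sample of its group. The p-values rest on the spread among these arrays, which may be partly technical. All values are log2 array signals as the authors deposited them, and a difference is KO minus WT. A gene value is the mean over the gene's probe sets.

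The arrays had medians of 6.72 to 6.77 over all probe sets. The knockout label was checked on Ttll5, which stood at 11.15 ± 0.015 in WT and 9.53 ± 0.043 in KO (SD, n = 3 each; limma adjusted p = 4.3e-05). The ratio of KO to WT was 0.326, and the KO mean was still above the upper quartile of all genes (8.52). The Ttll5 signal was thus reduced and not absent. All 8 measured markers of elongating spermatids were above the upper quartile of all genes, with Prm1 at 12.30 in WT and Odf1 at 13.69. Of 6 measured epididymis markers, 4 were below the lower quartile (4.53) and 0 above the upper quartile, from Crisp1 at 3.43 in WT to Rnase10 at 6.45. These are whole testes, so fewer cells of a type and less RNA per cell cannot be told apart.

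The arrays could not separate Tuba3a from Tuba3b, the testis alpha tubulin genes, although both have their own place on chromosome 6. The 250 bases before the start of each gene are shown to compare the 2 loci behind the shared signal (RefSeq, GRCm38.p6). Capitals mark the motif CCAAT, searched on both strands with ATTGG as its reverse complement. The first lies at chr6:125286082-125286331 on the minus strand and the second at chr6:145615713-145615962 on the plus strand.
Tuba3a: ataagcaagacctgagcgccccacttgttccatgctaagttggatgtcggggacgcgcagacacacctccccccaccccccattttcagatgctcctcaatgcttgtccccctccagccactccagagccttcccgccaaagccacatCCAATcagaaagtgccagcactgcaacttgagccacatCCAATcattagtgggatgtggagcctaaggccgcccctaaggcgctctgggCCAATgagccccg
Tuba3b: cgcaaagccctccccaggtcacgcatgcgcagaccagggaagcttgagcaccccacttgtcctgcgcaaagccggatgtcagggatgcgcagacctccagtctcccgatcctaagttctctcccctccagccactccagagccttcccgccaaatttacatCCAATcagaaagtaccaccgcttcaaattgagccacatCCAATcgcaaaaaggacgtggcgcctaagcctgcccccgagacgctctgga
A global alignment of the pair gave 173 identical columns of 282 (61.3%), and the longest run of letters present in both had 33 bases. The motif occurred 3 times in the window of Tuba3a and 2 times in that of Tuba3b. Of 32851 windows of this length, 33.8% held it at least once, 10.1% at least 2 times and 2.8% at least 3 times. Among the other tubulin genes looked up, Tube1 and Tubb3 had 1 match each, and Tuba4a, Tuba8, Tubd1, Tubg2 and Tubb4 had 0. Tubg1 was not matched in the table. A match is a description of letters and not a binding site.

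The signal shared by Tuba3a and Tuba3b was among the brightest on the arrays. The mean of the 5 shared probe sets read 12.36, 12.48 and 12.25 for WT, beside 12.52, 12.39 and 12.33 for KO. The groups overlapped, and the KO mean differed from the WT mean by 0.052, less than the SD within WT (0.12). That level exceeded the values of 99.7% of genes. The 5 probe sets ranged from 11.57 to 13.12 in level and from -0.042 to 0.20 in difference. None of these 5 passed the probe set test (smallest limma adjusted p = 0.975), and the values belong to the pair, not to either gene.

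Of the 9 tubulin genes with a value of their own, 4 lay above the upper quartile of all genes, 4 between the quartiles and 1 below the lower quartile. By position among all genes these were Tuba8 (percentile 99.4), Tuba4a (89.9), Tubd1 (82.4) and Tubg1 (81.2), then Tubb6 (71.9), Tubb3 (67.6), Tube1 (62.9) and Tubg2 (47.3), with Tubb4 last (19.0). Different genes are read by different probes, so this order ranks signals and not amounts of transcript. The 6 arrays of Tubd1 and Tubg1 overlapped in level, whereas those of any other neighbours in this order did not. No other tissue was measured, so a high signal here does not show that a gene is higher in testis than elsewhere.

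**Figure D1:**
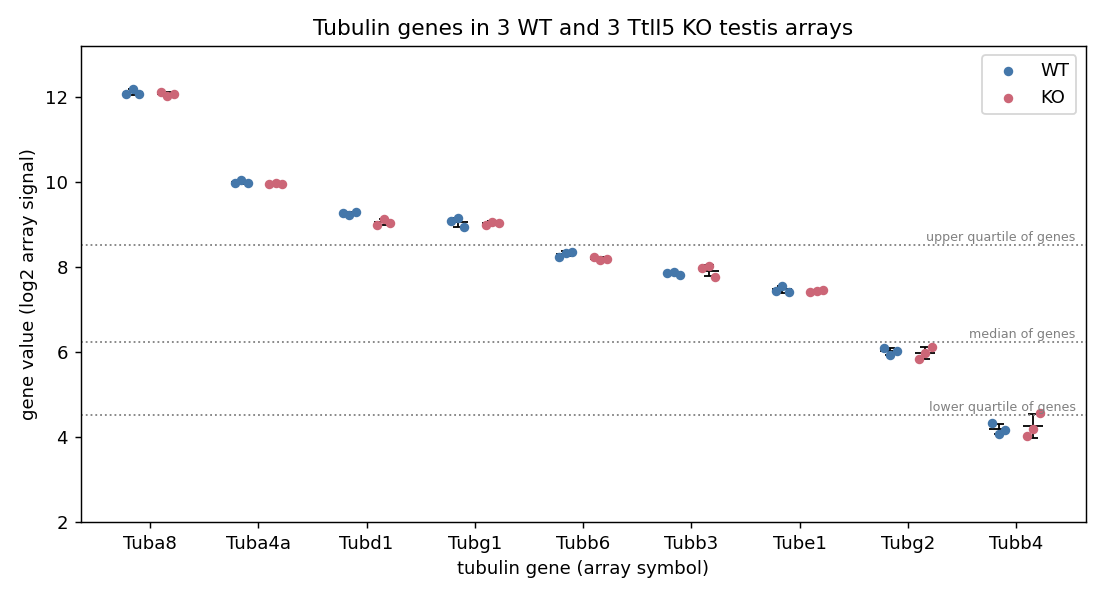
Gene values (log2 array signal, y axis) of the 9 tubulin genes in 3 WT (blue) and 3 KO (red) arrays, with points for arrays and black bars for the mean ± SD of each group. Dotted lines are the quartiles of all genes. Tuba8 lies near 12.1 and Tubb4 near 4.2, and the distance between genes is far larger than that between genotypes.

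None of the 9 tubulin genes changed past the threshold between KO and WT. In limma over all 15792 genes, 0 of 9 had an adjusted p under 0.05, where 0.0697% of all genes did. Without adjustment 1 of 9, Tubd1, had p under 0.05, against 6.05% of all genes. Differences were below 0 for 7 genes and above 0 for 2, with a median of -0.034, beside a median of -0.0026 over all genes. The groups did not overlap for 2 of 9, Tubd1 and Tubb6, against 11.2% of all genes. Both had every KO array below every WT array, which held for 6.67% of all genes. The largest difference that a 95% interval (limma, not adjusted) reached was 0.38 in size, for Tubd1 and Tubb4, and it was 0.19 to 0.28 for the other 7.

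**Figure D2:**
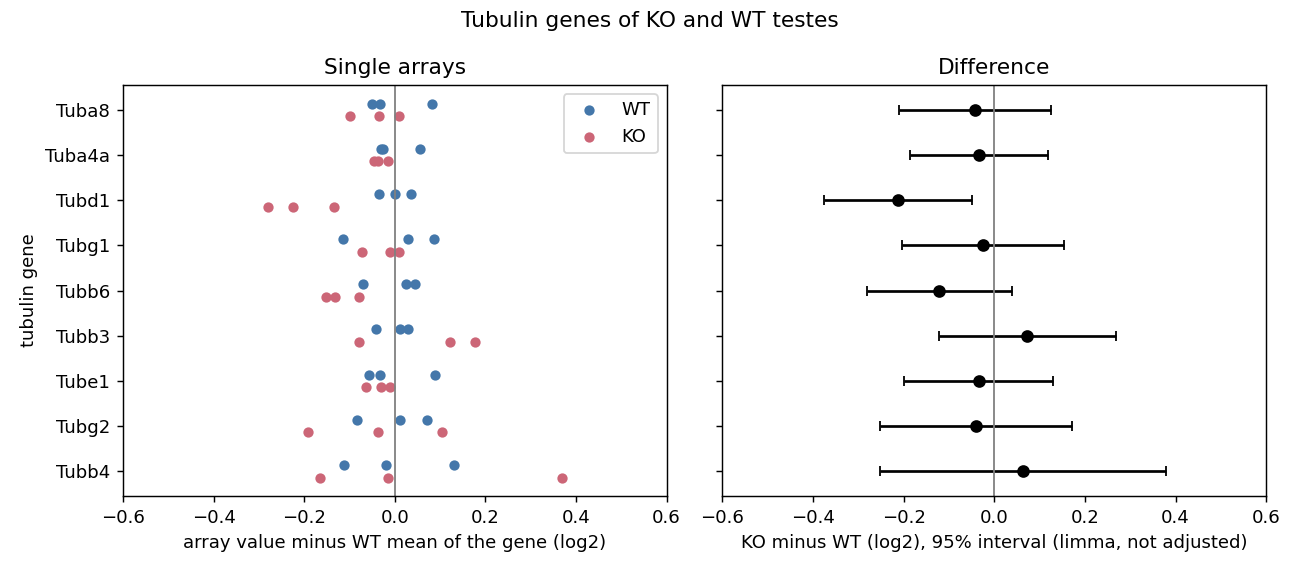
The left panel shows each array's value minus the WT mean of its gene (log2), with WT in blue and KO in red. The right panel shows KO minus WT with its 95% interval from limma, not adjusted for the number of genes, and the interval of Tubd1 alone leaves out 0, from -0.38 to -0.049.

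Among the alpha tubulins, Tuba8 is an isotype known for a tail that departs from the usual alpha sequence. Its values were 12.06, 12.20 and 12.08 for WT, against 12.12, 12.01 and 12.08 for KO. The groups overlapped, and the difference of -0.042 (SE 0.073, limma adjusted p = 0.98) came with a 95% interval of -0.21 to 0.13. All 6 of its probe sets were above the upper quartile on every array, with levels of 11.28 to 12.83.

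Tuba4a, an alpha tubulin whose gene does not encode the usual C-terminal tyrosine, stood at 9.97, 10.05 and 9.97 in WT. The KO arrays gave 9.95, 9.98 and 9.96, all inside or just under the WT range. The difference was -0.033 (SE 0.066, limma adjusted p = 0.982), with an interval of -0.19 to 0.12. Only 2.75% of genes had the same or a smaller SD within groups, which for Tuba4a was 0.036 when pooled over both groups. Of its 5 probe sets 4 were above the upper quartile on every array and 1 had a mean of 5.13.

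Among the beta tubulins, Tubb6 lay lower in every KO array. Its values were 8.25, 8.34 and 8.36 (WT) and 8.24, 8.16 and 8.18 (KO), so that the highest KO array was just under the lowest WT array. The difference was -0.12 (SE 0.069, limma adjusted p = 0.879), with an interval of -0.28 to 0.038. All 4 probe sets had lower KO means, by 0.027 to 0.20, where 50.1% of all probe sets had higher ones. In 1 of the 4 the groups did not overlap, against 10.2% of all probe sets. The 4 probe sets of Tubb6 come from the same 6 arrays and are not separate replicates.

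Tubb3, best known as the beta tubulin of neurons and also found in Sertoli cells, rested on 1 probe set. It read 7.86, 7.87 and 7.80 for WT, against 7.97, 8.02 and 7.77 for KO. The lowest and the highest of the 6 were both KO arrays. The difference was 0.073 (SE 0.085, limma adjusted p = 0.959), with an interval of -0.12 to 0.27. Of 7 measured neuron markers, 3 were below the lower quartile of genes and 1 above the upper quartile, from Snap25 (3.88 in WT) to Map2 (8.55). Of 7 measured Sertoli cell markers, 1 was below the lower quartile and 2 above the upper quartile, from Amh (4.35 in WT) to Clu (11.81).

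Tubb4, a beta tubulin known mainly from brain, was dim. Its values were 4.33, 4.08 and 4.18 (WT) and 4.03, 4.18 and 4.57 (KO), and 4 of its 6 probe sets were below the lower quartile on every array. These levels are not shown to be above background. The KO arrays spanned both ends of the 6 values, and the SD within KO was 0.28. The difference was 0.063 (SE 0.14, limma adjusted p = 0.983), and it was -0.091 without KO 3 and 0.18 without KO 1. The 1 probe set left after dim ones were removed differed by 0.44 (limma adjusted p = 0.752), with all 3 KO arrays (6.11, 5.93 and 6.62) above the WT arrays (5.83, 5.64 and 5.87). Since that filter uses the mean over all arrays, high KO values helped to keep this probe set, and its difference is no separate support.

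The gamma tubulins Tubg1 and Tubg2 are close neighbours on chromosome 11 with unlike signals. Tubg1, the gamma tubulin of centrosomes in most cells, gave 9.09, 9.14 and 8.94 for WT, against 8.98, 9.07 and 9.05 for KO. The KO arrays lay within the range of the WT arrays. The difference was -0.0245 (SE 0.078, limma adjusted p = 0.991, interval -0.20 to 0.15), and it was 0.014 with quantile normalization. Of its 11 probe sets, 8 were above the upper quartile on every array.

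Tubg2, known from brain and early embryos, gave 6.09, 5.94 and 6.03 (WT) and 5.83, 5.98 and 6.12 (KO). The KO arrays again held both the lowest and the highest value. The difference was -0.041 (SE 0.092, limma adjusted p = 0.983, interval -0.25 to 0.17), and it was 0.034 without KO 1. Its 10 probe sets spread from 2.99 to 9.14, with 2 below the lower quartile on every array and 0 above the upper quartile. The products are closely related, and whether their probes also bind the other's RNA was not tested.

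The probe sets of Tubg2 differed by -0.40 to 0.41, with 4 higher and 6 lower in KO. At the upper end was 5234435, below the lower quartile on every array and with overlapping groups. At the lower end was 4383125, described here because of its unadjusted p. It read 7.88, 7.87 and 7.88 for WT, against 7.29, 7.62 and 7.52 for KO, so every KO array was lower. The difference was -0.40 (SE 0.13, unadjusted p = 0.0145, limma adjusted p = 0.870 over all probe sets). The WT arrays had an SD of 0.003 (n = 3), and without adjustment this was the smallest p among the 65 probe sets. It did not pass the threshold.

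Delta tubulin, Tubd1, showed the largest difference of the 9. It takes part in centriole structure and has been found in the manchette region and intercellular bridges of spermatids. Its values were 9.27, 9.23 and 9.31 (WT) and 8.99, 9.14 and 9.05 (KO). Every KO array was below every WT array, and the gap between the nearest arrays of the 2 groups was smaller than the range of the KO arrays. The difference was -0.21 (SE 0.071, interval -0.38 to -0.049, unadjusted p = 0.017), a ratio of 0.863. Over all genes the limma adjusted p was 0.713, and its p ranked 373 among 15792 genes. Without WT 3 or KO 1 the unadjusted p was 0.0529 and 0.0513.

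Most of the gene's probe sets had lower KO means. Of 10, 9 were lower and 1 was higher, where 50.1% of all probe sets had higher KO means. The median was -0.19 and the range -0.54 to 0.025. In 2 of the 10 the groups did not overlap (10.2% of all probe sets), and 2 had an unadjusted p under 0.05 (5.36% of all probe sets). One of the latter (4970876) read 9.65, 9.59 and 9.78 for WT, against 9.29, 9.40 and 9.39 for KO, a difference of -0.32 (limma adjusted p = 0.891). The other (5260852) read 6.14, 6.06 and 6.52 (WT) and 5.57, 5.43 and 6.10 (KO), a difference of -0.54 (limma adjusted p = 0.912), and there 1 KO array exceeded the lowest WT array. The probe sets share their arrays, so their common direction adds no replicates.

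Markers of germ cells lay slightly lower in KO as well. Of 22 measured markers of spermatocytes, round spermatids and elongating spermatids, 19 had lower KO means, where 48.9% of all genes had higher ones. The medians were -0.094, -0.091 and -0.067 for the 3 lists, and 0 passed the limma threshold. Only Tnp1 had an unadjusted p under 0.05, against 6.05% of all genes. Of 7 measured spermatogonia markers 5 had lower KO means, with a median of -0.117, and none passed the threshold. The mean level of the round spermatid list was 10.66 to 10.74 in WT and 10.57 to 10.68 in KO, and that of the elongating spermatid list was 12.66 to 12.73 and 12.61 to 12.68. Leydig cell markers went the other way, with 7 of 7 higher and a median of 0.35. Their mean level was 8.98 to 9.36 in WT and 9.48 to 9.59 in KO, and in 4 of 7 (Cyp11a1, Cyp17a1, Star and Hsd17b3) every KO array was above every WT array, against 4.53% of all genes. None of the 7 Leydig cell markers passed the limma threshold (smallest adjusted p = 0.449), and those 4 had an unadjusted p under 0.05, against 6.05% of all genes. Higher KO means were also held by 5 of 8 macrophage, 5 of 7 Sertoli cell and 6 of 8 myoid markers, with medians of 0.090, 0.031 and 0.028. Endothelial markers were split, 4 higher and 4 lower. Of the macrophage markers 2 had an unadjusted p under 0.05, and Cd14 differed by 0.47 (limma adjusted p = 0.23). The part of these shifts in the values of Tubd1 and Tubb6 was not tested.

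Epsilon tubulin, Tube1, which works with delta tubulin at the centriole, had overlapping groups. Its values were 7.44, 7.57 and 7.42 for WT, against 7.41, 7.45 and 7.47 for KO, with the highest of the 6 in WT. The difference was -0.034 (SE 0.071, limma adjusted p = 0.983, interval -0.20 to 0.13), and it was 0.011 without WT 2. Whether the differences of Tubd1 and Tube1 themselves differ was not tested. Its 12 probe sets lay between 5.80 and 8.33, with 8 lower and 4 higher in KO. The probe set 4910378 read 5.47, 5.79 and 5.51 (WT) and 5.93, 5.92 and 6.19 (KO), every KO array being higher, with a difference of 0.43 (unadjusted p = 0.0191, limma adjusted p = 0.884).

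Over all 65 probe sets of the 9 genes, 0 passed the threshold of the probe set test (limma, smallest adjusted p = 0.870), where 0.0382% of all probe sets did. Without adjustment 4 of 65 (6.15%) had p under 0.05, against 5.36% of all probe sets. The groups did not overlap in 7 of 65, against 10.2% of all probe sets. Both shares are near those of the arrays as a whole. KO means were lower in 45 probe sets and higher in 20, where 50.1% of all probe sets had higher ones. The differences ranged from -0.54 to 0.44. Probe sets of a gene share their arrays, so these counts add no replicates.

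**Figure D3:**
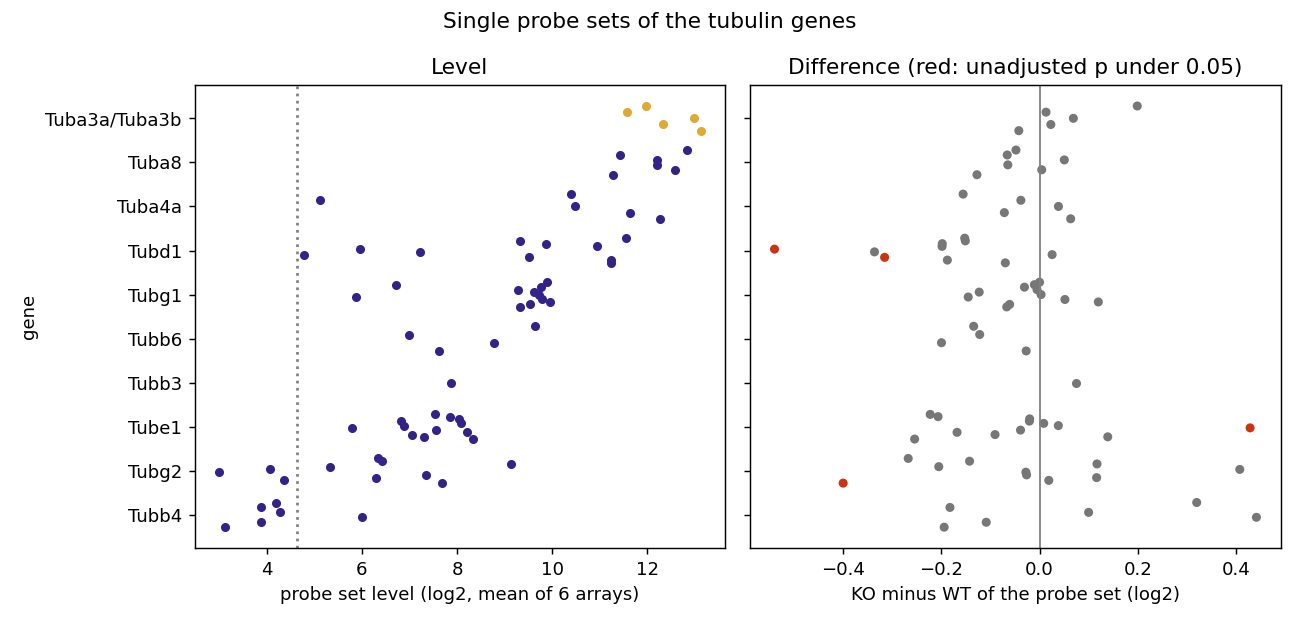
Each point is 1 probe set. The left panel gives its level (log2, mean of 6 arrays), with the mean lower quartile of the arrays as a dotted line and the probe sets shared by Tuba3a and Tuba3b in yellow, and the right panel gives its KO minus WT difference (log2). The 4 red points have an unadjusted p under 0.05, 2 in Tubd1 and 1 each in Tube1 and Tubg2, and none of the 65 passed after adjustment.

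Other tubulins and genes that act on tubulin were read beside these from 6 lists of 106 genes, 87 of them measured. No gene of any list passed the limma threshold. Of the 87, 5 (Haus1, Pfdn2, Tbcc, Vash1 and Kif18a) had an unadjusted p under 0.05, near the share of all genes (6.05%). Lower KO means were held by 59, where 48.9% of all genes had higher ones. Of the 10 other tubulins 4 had a value, Tuba1a, Tubb2a, Tubb2b and Tubb5. They ranged from -0.0026 for Tubb2a to 0.11 for Tubb5 (SE 0.10, adjusted p = 0.945), and Tuba1a, a major alpha tubulin, stood at 9.80 ± 0.099 in WT and 9.90 ± 0.21 in KO (SD, n = 3 each).

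Partners of gamma tubulin, the ring complex and the augmin complex that branches microtubules, had 16 measured members, 4 higher and 12 lower, with a median of -0.032. The extremes were Haus2 (0.18, SE 0.17) and Haus1 (-0.19, SE 0.077, unadjusted p = 0.0361, limma adjusted p = 0.806), both augmin subunits. Centriole genes had 22 measured, 8 higher and 14 lower, with a median of -0.035. Tedc1, a partner of delta and epsilon tubulin encoded on chromosome 12 like Ttll5, was at the upper end with 0.46 (SE 0.24, limma adjusted p = 0.872). Cetn2, a centrin, was at the lower end with -0.19 (SE 0.096). For Haus1 and Cetn2 every KO array was below every WT array, as for 6.67% of all genes.

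Tubulin folding genes, the prefoldin and chaperonin subunits and the cofactors that assemble the dimer, mostly had lower KO means. The count was 17 of 19 measured, with a median of -0.088, where 48.9% of all genes had higher KO means. Lower KO means were also held by 19 of the 22 spermatocyte and spermatid markers. Pfdn2 and Tbcc had an unadjusted p under 0.05, against 6.05% of all genes. Pfdn2, a prefoldin subunit, read 8.69, 8.64 and 8.66 for WT, against 8.37, 7.96 and 8.11 for KO. All KO arrays were lower, as for 6.67% of all genes. The difference was -0.52 (SE 0.11, interval -0.76 to -0.27), and the limma adjusted p was 0.373. Tbcd, a cofactor of the beta subunit, was the highest at 0.0042. The list's mean level was 9.61 to 9.67 in WT and 9.50 to 9.58 in KO, with no set test made.

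The list for tyrosine and acetyl modification of tubulin held Ttl, Vash1, Vash2, Svbp, Atat1, Hdac6, Sirt2 and Agbl2. It had 8 of 8 measured, 4 higher and 4 lower. Vash1, which removes the terminal tyrosine of alpha tubulin and lies on chromosome 12, was highest at 0.24 (SE 0.071, unadjusted p = 0.0103, limma adjusted p = 0.654). Every KO array of Vash1 was above every WT array, as for 4.53% of all genes. Its partner Svbp was lowest at -0.097 (SE 0.082), with every KO array below every WT array, as for 6.67% of all genes. Genes of microtubule severing and dynamics had 18 measured, 7 higher and 11 lower, with a median of -0.038. Kif18a, a kinesin that limits microtubule length, was lowest at -0.23 (SE 0.080, limma adjusted p = 0.747), and its KO arrays were likewise all below its WT arrays. The severing factor Fign was highest at 0.13 from a WT level of 3.28, which is below the lower quartile of genes.

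**Figure D4:**
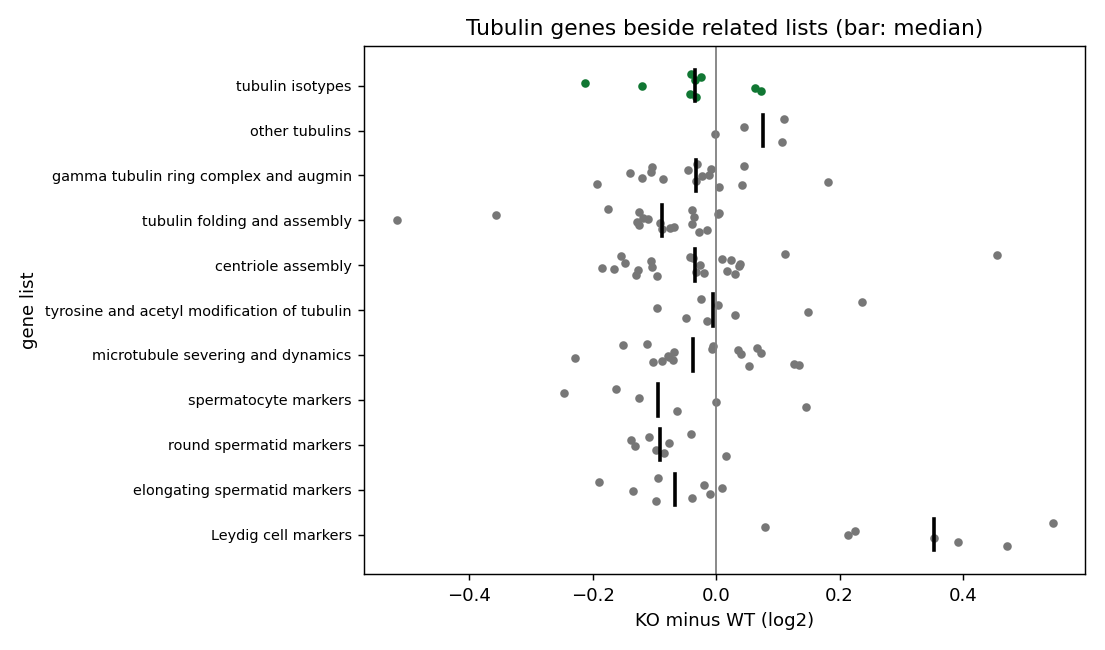
KO minus WT differences (log2, x axis) of single genes, with a black bar at each median. The 9 tubulin isotypes are in green, beside 6 lists of other tubulins and genes that act on tubulin, and markers of 4 cell types. The tubulin isotypes have a median of -0.034, the folding genes -0.088 and the Leydig cell markers 0.35.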

How the data were processed

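The authors deposited 1 table of log2 probe set values for 6 arrays. RMA is named as the method and Partek 6.5 as the software, per the submitters' processing notes. The build and annotation used are not given in the sources read. RMA makes array distributions alike, so a shift of most genes would not show. The log2 values were used as deposited. Probe sets with 1 annotated symbol (179163) were averaged per gene, and those with several (1322) or none (8105) made no gene value. The KO against WT test was limma 3.58.1 under R 4.3.3 (lmFit and eBayes, two-sided, no covariates), run over all genes and over all probe sets, with Benjamini-Hochberg adjustment and a threshold of 0.05. With 3 arrays a group, exact permutation p-values are at least 0.1, so limma, which pools the spread over genes, was used for single genes. The number of arrays limits the precision.

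The members and lists were chosen with earlier results of these data known. Named were all members, Ttll5, the highest and lowest gene of each related list and defining markers; Tuba1a, Tubb2b, other genes with an unadjusted p under 0.05 and the single probe sets were named after their values were seen. Symbols were updated through RefSeq (GRCm38.p6). Protein sequences were planned and not used here, and the promoter window of Tubb6 was not used. The scripts were tested on simulated arrays. Alternatives covered the gene summary, dim features, normalization, moderation, array weights, a replicate block and each array left out.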

Additional observations from a re-analysis of the deposited data

How the results depend on the processing

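The count of called tubulin genes was 0 under all 15 alternatives (smallest limma adjusted p = 0.542, for Tubd1 with dim genes left out), and that of their probe sets 0 under all 13 tried. Of 134 tubulin gene differences under an alternative, 128 kept their sign and 6 did not. These were Tubb4 by the median of its probe sets (-0.0056), Tubg1 with quantile normalization (0.0137), and, with 1 array left out, Tubb4 (-0.0905 to 0.1768), Tube1 (-0.063 to 0.0108), Tubg1 (-0.0821 to 0.0188) and Tubg2 (-0.1133 to 0.0335). Tubd1 stayed lower throughout (-0.2572 to -0.1756), with an unadjusted p under 0.05 in 12 of 15. With quantile normalization the differences rose for Tuba4a (-0.003), Tuba8 (-0.0127), Tubd1 (-0.1756), Tube1 (-0.0223), Tubg1 (0.0137), Tubb3 (0.0919) and Tubb6 (-0.0919). Those of Tubg2 (-0.0497) and Tubb4 (0.0492) fell. The small differences thus depend in part on the normalization.

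Over all genes the 11 calls became 5 with the median, 20 with trended and robust moderation and 2 without moderation. The 72 called probe sets became 125 and 3 under those 2 moderation settings, and 13 to 37 with 1 array left out (omitting WT 1, 2 or 3 gave 37, 14 and 14 calls, and omitting KO 1, 2 or 3 gave 28, 13 and 30). With the replicate block there were 9 gene and 7 probe set calls and 0 tubulin calls. Arrays of the same number deviated from their group means with correlations across genes of -0.17, 0.072 and 0.18. Not every array correlated best with its own number. Deviations from a mean of 3 arrays sum to 0, so these correlations cannot show whether any WT and KO arrays are paired. Signals below the lower quartile, as for Tubb4, are not shown to be above background.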

Other observations

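The 2 tubulin genes with the widest range over the 6 arrays were Tubb4 (0.53) and Tubd1 (0.32). Among 14151 other genes with 3 or more probe sets, the values most like those of Tubb4, each gene centred on its own mean, were those of Rpusd1, Kcne2 and Tagln3, with root mean square distances of 0.036, 0.038 and 0.039 over 6 arrays. Most like Tubd1 were Smyd3, Pkd2l1 and Golga5, with distances of 0.029, 0.032 and 0.032. The genes were picked for this likeness, so their own KO minus WT differences follow from the choice and are not given.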
